A study of Mus musculus with 2 samples.

Results

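The antigen presentation genes are the 33 genes, of 32285 in each matrix, whose symbols belong to a named set of class I, class II, peptide loading, endosomal processing and costimulation genes. All 33 were found by symbol in both libraries. They comprise 9 class I chains, 9 genes of class I peptide supply and loading, 10 genes of class II chains and loading, 3 endosomal processing genes and 2 costimulatory ligands. The study sequenced mononuclear cells of quadriceps muscle from wild-type C57BL/6J mice injected in the muscle with barium chloride (BaCl2, 100 µl at 1.2% weight per volume), which destroys muscle fibres. One library was made at 2 h and 1 at 9 h after the injection, both from cryo-preserved cells. Both groups share strain, genotype and injury, there was no uninjured library, and no label used here gave the age, sex or number of the animals. Time, library and animals therefore cannot be told apart, no test across samples was possible, and every difference below lacks a replicate check.

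Class I molecules are carried by nearly all nucleated cells and show peptides made in the cytosol to CD8 T cells. The peptides are cut by the proteasome, which can take in the inducible subunits of the immunoproteasome, then are pumped into the endoplasmic reticulum by TAP and loaded on a heavy chain paired with beta-2 microglobulin. Class II molecules are carried mainly by dendritic cells, macrophages and B cells, where the invariant chain CD74 guards the groove until endosomal proteases remove it, and they show ingested peptides to CD4 T cells. Interferons raise class I genes through the coactivator NLRC5 and class II genes through CIITA.

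Of the 33 members, 21 lie on chromosome 17 (mm10, GENCODE M21), 16 of them H2 genes of the major histocompatibility complex. RefSeq promoter windows (GRCm38.p6) were found for 26 members. H2-Ab1, Cd74, Ciita, Tap2, Tapbpl, Nlrc5 and Cd86 had none. The 250 bases before each start were searched on both strands for known elements of these promoters: the Y box core ATTGG, the X2 box core TGACG, the X1 box core and the interferon-response element GAANNGAAA. Matches were allowed to overlap. The Y box core was present in 9 of 9 class I chains and 6 of 7 class II genes, against 34.5% of all 27025 promoters. The X2 box core was present in 7 of 9 class I chains and 1 of 7 class II genes, H2-Aa, against 17.9% of all promoters. Both cores were present in the same numbers, 7 of 9 and 1 of 7, against 6.39%. The interferon-response element was present in 6 of 9 class I chains, against 6.34%, and the X1 box core in 3 of 7 class II genes, against 3.54%. Among the 6 peptide loading genes with a window, Psmb9 and Tap1 held both the Y box and X2 box cores, and 0 held the interferon-response element. A match describes letters and is not a site shown to be bound. Each box was searched as a fixed pattern and other spellings were not searched. A promoter without a match is therefore not shown to lack the box.

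These stretches of 5 members are shown because they hold the boxes of the chains whose levels are compared here, for class I (H2-K1, B2m) and class II (H2-Aa, H2-Eb1, H2-Ob). Each reads 5′ to 3′ toward the gene, with the matched boxes in capitals, and lies upstream of the RefSeq start and outside any GENCODE exon. The H2-K1 stretch is chr17:34000349-34000447 on the minus strand, B2m is chr2:122147599-122147648 on the plus strand, H2-Aa is chr17:34287857-34287907 on the minus strand, H2-Eb1 is chr17:34305765-34305846 on the plus strand and H2-Ob is chr17:34238807-34238862 on the plus strand.
H2-K1: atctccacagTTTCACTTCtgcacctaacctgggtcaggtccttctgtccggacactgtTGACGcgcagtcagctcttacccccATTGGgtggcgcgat
B2m: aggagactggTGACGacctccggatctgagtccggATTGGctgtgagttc
H2-Aa: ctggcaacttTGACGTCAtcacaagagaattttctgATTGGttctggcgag
H2-Eb1: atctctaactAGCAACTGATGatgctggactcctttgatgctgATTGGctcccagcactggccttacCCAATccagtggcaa
H2-Ob: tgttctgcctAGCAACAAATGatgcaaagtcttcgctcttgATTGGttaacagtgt
In H2-K1 the interferon-response element stands on the reverse strand (TTTCACTTC), upstream of the X2 and Y boxes. H2-Aa, the 1 class II gene of the 7 with a match to the letters TGACG, carries them on both strands as a palindrome. H2-Eb1 and H2-Ob carry the X1 core upstream of a Y box, and H2-Eb1 has a further Y box on the reverse strand (CCAAT).

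The libraries kept 4900 cells with 27598413 UMIs (unique molecules) at 2 h and 8147 cells with 35127600 UMIs at 9 h, with medians of 4519 and 2327 UMIs per cell. Cells were clustered with the 33 members left out of the variable genes, and no member served as a marker, so the members did not shape the classes through those steps. The clusters still used interferon genes and other genes that move with the members. The 6 classes with at least 100 cells in each library were neutrophil-like (1631 and 4289 cells), FAP-like (fibro-adipogenic progenitors, the mesenchymal cells between fibres; 2069 and 2401), endothelial-like (265 and 565), resident macrophage-like (307 and 231), monocyte-like (170 and 357) and dendritic-like (138 and 118). Most FAP-like cells of the 2 h library lay in clusters 0 and 2, and most of those of the 9 h library in clusters 10, 15 and 17. Most neutrophil-like cells lay in cluster 6 at 2 h and in clusters 5, 14 and 18 at 9 h. The libraries had 20 barcodes in common, carried by 13 and 19 of the kept cells.

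Levels are CPM, the gene's UMIs per 1000000 UMIs of the class, and intervals are 95% and cover counting error only. They take UMIs as independent, so they understate the error where a handful of cells carry most of a gene's UMIs. A gene counted as measured in a class with at least 100 UMIs over both libraries, and as higher or lower when the log2 ratio of 9 h to 2 h, with 10 CPM added, passed 1 or -1. H2-Q6 and H2-Q7, H2-K1 and H2-D1, and H2-DMb1 and H2-DMb2 are near copies. Reads that fit both genes of a pair could be dropped or given to either, so values within each pair are uncertain. In addition, 17 of the 33 members overlap a gene on the opposite strand. Whether the counting used strand was not stated, so their reads may not be separable. Tapbp overlaps Zbtb22 (3422 bases) and H2-DMa overlaps Gm50336 (591 bases) on the same strand, where strand could not separate the reads.

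**Figure D1:**
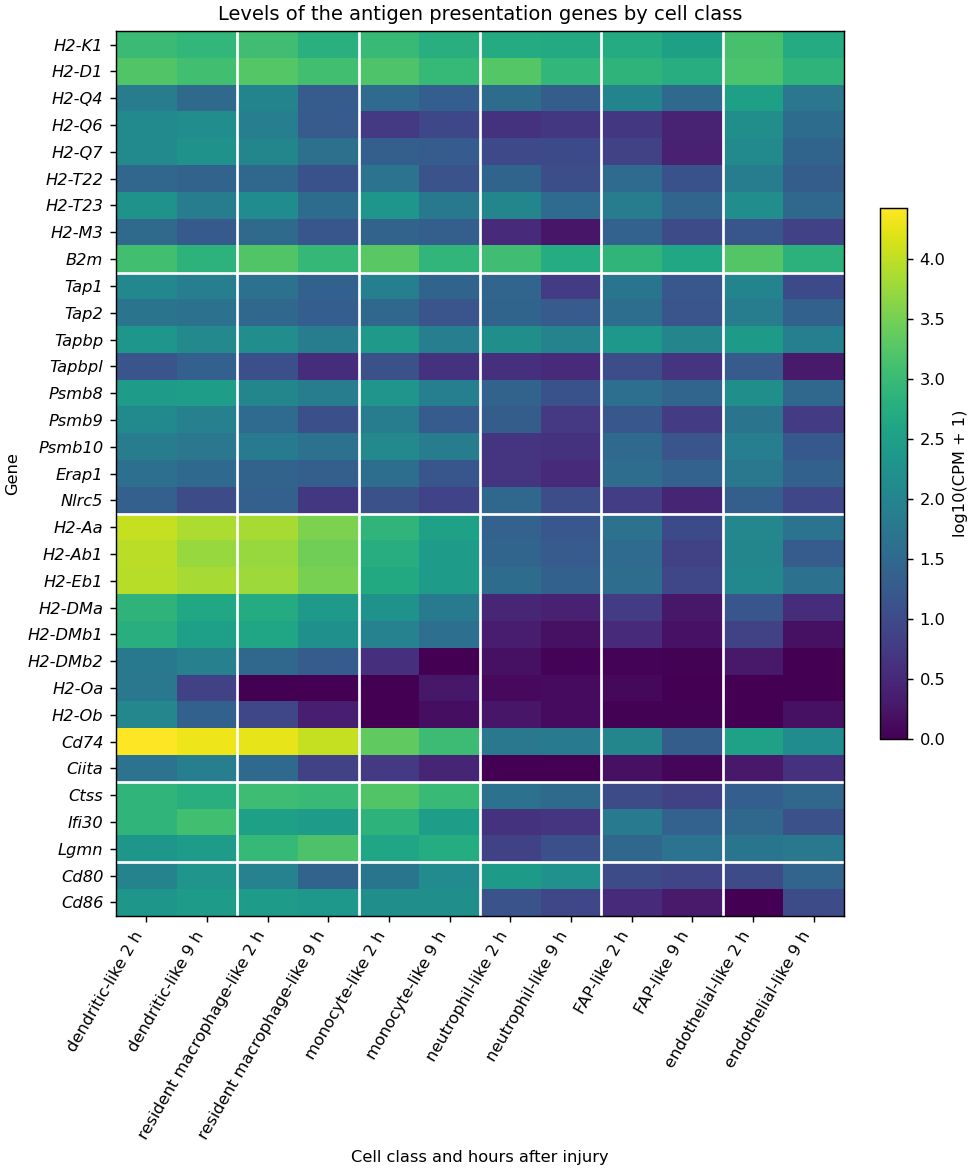
Heat map of each member's level, as log10(CPM + 1), in the 6 large classes at 2 h and 9 h, with white lines between classes and between the 5 role groups. H2-K1, H2-D1 and B2m are bright in each of the 6 classes, while Cd74, H2-Aa, H2-Ab1 and H2-Eb1 are bright in dendritic-like and resident macrophage-like cells, moderate in monocyte-like cells and dim elsewhere.

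Members were more often lower than higher at 9 h. Over all kept cells 14 of the 33 were lower, where 6.11% of all measured genes were lower, and 0 were higher (3.55% of all genes). The mix of cells differed between the libraries: neutrophil-like cells were 33.3% at 2 h and 52.6% at 9 h. Resident macrophage-like cells went from 6.27% to 2.84% and dendritic-like cells from 2.82% to 1.45%. The part of this mix in the count was not tested. Of the 14, 6 were class II genes, and of these H2-Aa, H2-Ab1, H2-Eb1 and Cd74 passed 2-fold in neither of the latter classes. In FAP-like cells 11 of the 27 measured members were lower and 0 higher, where 9.21% of all measured genes were lower. In endothelial-like cells 16 of 18 were lower (8.4% of all), in monocyte-like cells 10 of 20 (5.78%) and in resident macrophage-like cells 7 of 22 (6.58%). In neutrophil-like cells 5 of 21 were lower (5.91%), and in dendritic-like cells 2 of 27 (5.46%). Cd80 was the 1 member higher in monocyte-like cells (4.69% of all genes were higher) and the 1 higher in dendritic-like cells (5.83%). In neutrophil-like, FAP-like, endothelial-like and resident macrophage-like cells 0 members were higher, where 4.82%, 7.27%, 9.33% and 4.47% of all genes were. With TMM scaling the count of lower members was 2 in neutrophil-like cells and 4 in dendritic-like cells, where 0 were then higher. Without the cells of highest doublet score the counts were 6 in FAP-like cells and 8 of the 9 still measured in endothelial-like cells.

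The median log2 ratio of the measured members was -1.54 in endothelial-like cells, where all measured genes had 0.05. It was -1.03 in monocyte-like cells (all genes -0.09), -0.87 in resident macrophage-like cells (0.03), -0.80 in FAP-like cells (-0.00), -0.56 in neutrophil-like cells (-0.07) and -0.37 in dendritic-like cells (0.01). TMM scaling moved the median of all genes by 0.21 in monocyte-like cells, by 0.11 in neutrophil-like cells and by -0.11 in dendritic-like cells, with smaller shifts elsewhere. The genes of the interferon response that are not members moved beside them: 14 of 17 measured were lower in FAP-like cells, 12 of 12 in endothelial-like cells and 6 of 7 in neutrophil-like cells. In monocyte-like cells 3 of 6 were lower and 2 higher, in resident macrophage-like cells 2 of 5 were lower, and in dendritic-like cells 1 of 3. In endothelial-like cells Iigp1, an interferon-inducible GTPase, went from 1132 to 43.4 CPM and Ifit1 from 557 to 19.2 CPM. The part of interferon signalling in the members' values was not tested. From these sums over a class alone, fewer cells with a gene and less RNA of it per cell cannot be told apart.

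**Figure D2:**
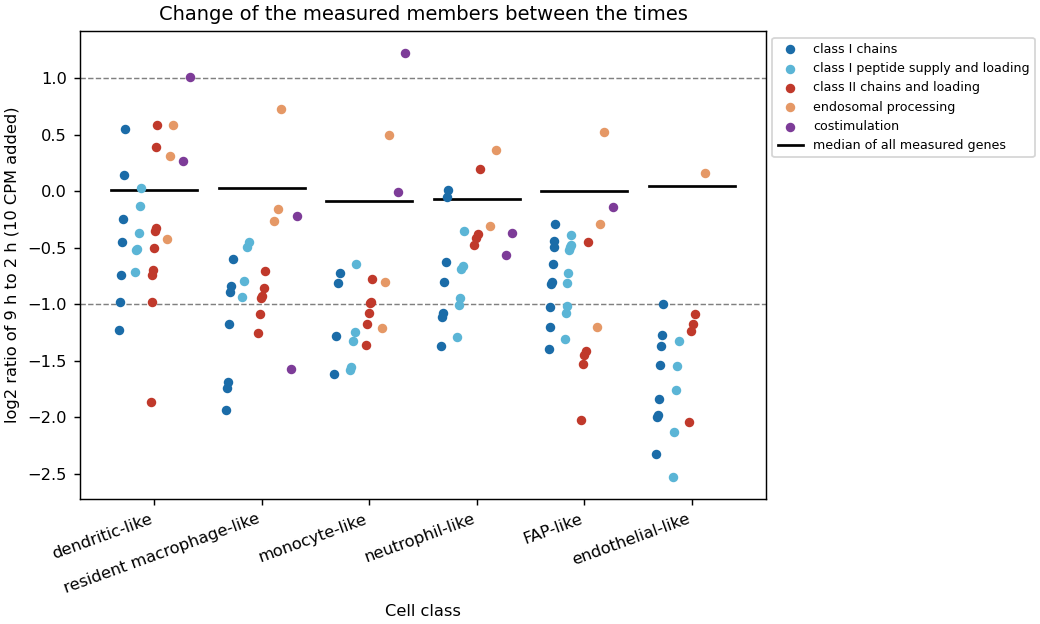
Points are the log2 ratios of 9 h to 2 h (10 CPM added) of the measured members in each of the 6 classes, coloured by role, the black bars are the medians of all measured genes and the dashed lines mark 2-fold. Endothelial-like points lie lowest, with a member median of -1.54, and dendritic-like points are nearest to all genes, with -0.37.

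H2-K1, H2-D1 and B2m had UMIs in every class, and H2-K1 was highest in T or NK-like cells and in an unnamed cluster. H2-K1 and H2-D1 are the classical heavy chains, and B2m is their light chain. At 2 h H2-K1 stood at 2776 CPM in T or NK-like cells (74 cells) and 2865 CPM in the unnamed cluster, whose leading genes include Calca, Gata3 and Il5 (29 cells), against 1389 CPM in endothelial-like and 519 CPM in FAP-like cells. The lowest H2-K1 levels at 2 h were in satellite-like cells, the muscle stem cells (270.2 CPM, 81 cells), and tenocyte-like cells (272 CPM, 59 cells). Summed over H2-K1, H2-D1 and B2m, T or NK-like cells had 7075 CPM (6788 to 7371) and satellite-like cells 890.3 CPM (794 to 995) at 2 h.

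In endothelial-like cells 7 of the 8 measured class I chains were lower at 9 h. B2m went from 1732 to 711 CPM, 2.44-fold lower (2.26 to 2.62). H2-K1 went from 1389 to 531 CPM, 2.62-fold lower (2.41 to 2.85), and H2-Q4, a nonclassical heavy chain, from 324 to 56.6 CPM, 5.73-fold lower (4.57 to 7.23). H2-D1, the measured chain that did not pass, stood at 1490 and 742 CPM, just short of 2-fold with 10 CPM added. H2-Q6 (156 to 36.3 CPM) and H2-Q7 (131 to 25.3 CPM) were lower as well, so both classical and nonclassical chains were on this side. The 12 neutrophil markers, all with a UMI, summed to 6762 CPM in endothelial-like cells at 2 h and 12961 CPM at 9 h, and their part in these values was not tested.

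In FAP-like cells 3 of the 9 measured class I chains were lower, all nonclassical. H2-K1 stood at 519 and 329 CPM, a ratio of 0.635 (0.615 to 0.656), H2-D1 at 764 and 562 CPM and B2m at 777 and 441 CPM, and none of these passed 2-fold. H2-Q4 (98.6 to 31.4 CPM), H2-T22 (35.0 to 12.1 CPM) and H2-T23 (73.7 to 26.4 CPM) did pass. H2-Q6 (4.30 and 1.67 CPM), H2-Q7 (6.33 and 1.57 CPM) and H2-M3 (23.7 and 9.08 CPM), nonclassical too but low, stayed within 2-fold with 10 CPM added. H2-T23 encodes Qa-1, the ligand of an inhibitory receptor of NK cells.

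H2-T23 was lower at 9 h in all 6 classes, although over dendritic-like subclusters D1 to D3 alone (described with the class II genes) the call was lost, at 185 and 101 CPM. It went from 208 to 61.3 CPM in monocyte-like cells, from 187 to 73.9 CPM in dendritic-like cells and from 142 to 35.4 CPM in resident macrophage-like cells. In endothelial-like cells it went from 145 to 29.1 CPM, 4.96-fold lower (3.59 to 6.94), and in neutrophil-like cells from 105 to 34.6 CPM. The fold was smallest in dendritic-like cells, 2.52 (1.93 to 3.34), with an interval that overlaps that of FAP-like cells (2.52 to 3.10).

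The nonclassical chains H2-Q4, H2-Q6, H2-Q7 and H2-T23 were lower in resident macrophage-like cells. H2-Q7 went from 108 to 42.4 CPM and H2-Q4 from 100.2 to 18.8 CPM, while H2-K1 (1167 and 649.8 CPM) and B2m (1659 and 892 CPM) stayed within 2-fold. Monocyte-like cells had B2m at 1977 CPM at 2 h and 808 CPM at 9 h, 2.45-fold lower (2.30 to 2.60), and H2-D1 at 1618 and 916 CPM. Dendritic-like cells differed in that H2-Q7 stood at 127 CPM at 2 h and 191 CPM at 9 h, a ratio of 1.5 (1.21 to 1.86), and H2-Q6 at 131 and 146 CPM; these are near copies and stayed within 2-fold.

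Neutrophil-like cells gave different ratios for the classical heavy chains, which are near copies whose values within the pair are uncertain. H2-D1 went from 1833 to 840.4 CPM, 2.18-fold lower (2.11 to 2.26), whereas H2-K1 stood at 525 and 508 CPM, a ratio of 0.967 (0.915 to 1.02). B2m went from 1154 to 541 CPM. With TMM scaling H2-K1 turned to a log2 ratio of 0.09, and H2-D1 (-0.97) and B2m (-0.94) no longer passed 2-fold. Within cluster 6, which both libraries fill, H2-D1 stood at 1849 CPM at 2 h and 1115 CPM at 9 h, and B2m at 1151 and 701 CPM. At 9 h cluster 6 also stood apart from clusters 5, 14 and 18: H2-D1 was 1115 CPM (1045 to 1188) against 855, 749.6 and 829 CPM, and H2-T23 was 74.0 CPM (56.9 to 94.7) against 35.6, 29.2 and 26.8 CPM. Isg15, an interferon-inducible gene open to the clustering, stood at 423 CPM there and at 92.0, 59.1 and 99.1 CPM in the others, and its part in this was not tested.

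Of the measured genes of class I peptide supply and loading, 5 of 5 were lower at 9 h in endothelial-like cells, 4 of 5 in monocyte-like cells, 3 of 9 in FAP-like cells (Tap1, Tap2 and Tapbp) and 2 of 6 in neutrophil-like cells (Tap1 and Psmb9). In resident macrophage-like and dendritic-like cells 0 of 4 and 0 of 6 passed. Tap1, a subunit of the peptide transporter, was lower in 4 of the 6 classes in which it was measured. Tapbp (tapasin, which holds the empty heavy chain at the transporter) and Psmb8, Psmb9 and Psmb10 (the immunoproteasome subunits) were lower in 3, 2, 2 and 1 of the classes.

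In endothelial-like cells Tap1 went from 98.8 to 8.80 CPM (95 and 16 UMIs), 11.2-fold lower (6.57 to 20.4). Psmb8 went from 159 to 28.6 CPM, 5.57-fold lower (4.04 to 7.78), and Tapbp from 255 to 80.8 CPM. Tap2, the partner of Tap1, went from 71.7 to 22.5 CPM and Psmb10 from 75.9 to 15.4 CPM. This group held the lowest log2 ratio of any measured member in the 6 classes, that of Tap1 in endothelial-like cells at -2.53.

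In monocyte-like cells Tapbp went from 248 to 77.7 CPM, 3.19-fold lower (2.63 to 3.87), and Psmb8 from 201 to 79.1 CPM. Psmb9 went from 74.6 to 18.3 CPM and Tap1 from 79.2 to 25.6 CPM. Psmb10 (119.9 and 73.3 CPM) stayed within 2-fold. Among resident macrophage-like cells 0 of the 4 measured genes of this group passed 2-fold, with log2 ratios of -0.93 to -0.45 and Tapbp at 147 and 72.3 CPM. In dendritic-like cells 0 of 6 passed, and Psmb8 stood at 281 and 287 CPM. Members that reached 100 CPM in none of the 6 classes included Tap2 (at most 71.7 CPM), the trimming peptidase Erap1 (59.3), the coactivator Nlrc5 (29.1), Tapbpl (21.9), H2-M3 (32.4) and H2-T22 (74.9).

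The inducible proteasome subunits were then set against the constitutive subunits they replace, as a share of each pair's UMIs within a class, which does not depend on how the class is scaled. Of the UMIs of Psmb8 and Psmb5 in endothelial-like cells, Psmb8 held 76.1% at 2 h (interval 69.6 to 81.8) against 19.0% in the 9 h library (14.6 to 24.2). In FAP-like cells it made up 36.8% (34.6 to 39.1) and 11.4% (10.5 to 12.3). The share of Psmb9 with Psmb6 in FAP-like cells was 12.9% and 2.94%, and of Psmb10 with Psmb7 37.5% and 12.2%. Both genes of a pair bear on its share: in FAP-like cells Psmb5 stood at 70.3 CPM at 2 h and 209 CPM at 9 h, and Psmb8 at 41.0 and 26.8 CPM.

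Resident macrophage-like cells had a Psmb8 share of 61.3% at 2 h and 31.7% at 9 h, and monocyte-like cells 63.0% and 32.9%. In resident macrophage-like cells Psmb8 itself stayed within 2-fold, at 104.5 and 71.6 CPM, so Psmb5 bears on that share too. In neutrophil-like cells the Psmb9 share was 57.4% (47.8 to 66.6) at 2 h and 15.3% (11.0 to 20.6) at 9 h, but Psmb10 made up only 9.56% and 7.57% of its pair. Dendritic-like cells had the highest Psmb8 and Psmb9 shares of the 6 classes at 9 h, 66.2% (72.7% at 2 h) and 33.5% (47.0%). Their Psmb10 share was 41.4% (45.3% at 2 h), and the intervals of the 2 times overlap for Psmb8 and Psmb10 but not for Psmb9. At 9 h the Psmb10 share of monocyte-like cells, 47.1% (41.5 to 52.7), was above that of dendritic-like cells with overlapping intervals.

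**Figure D3:**
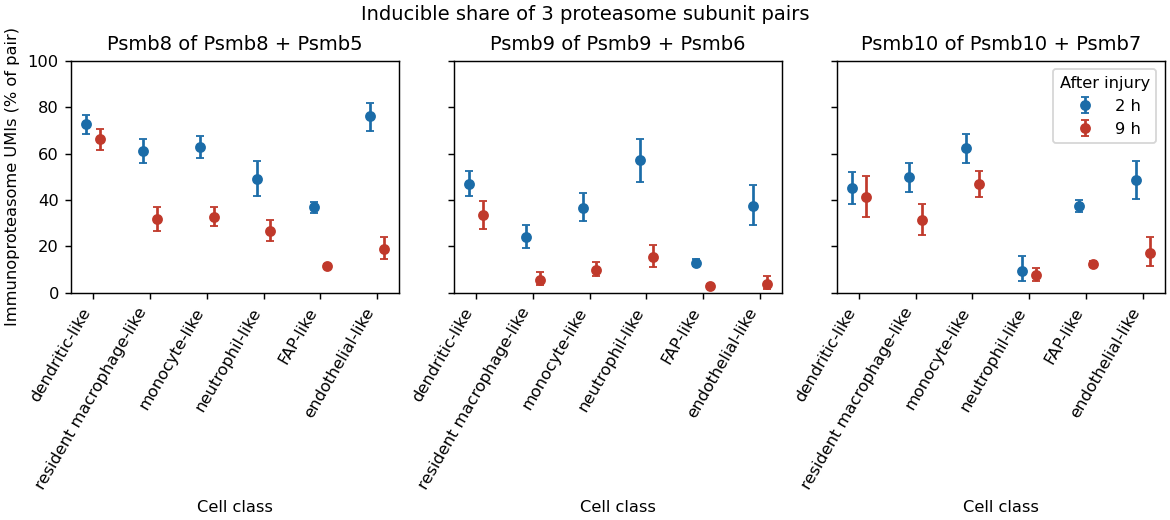
Points are the inducible subunit's percent of the UMIs of its pair in each class at 2 h (blue) and 9 h (red), for Psmb8 with Psmb5, Psmb9 with Psmb6 and Psmb10 with Psmb7, and bars are exact 95% binomial intervals. The red points lie below the blue ones in each of the 6 classes and every pair, with the widest gap for Psmb8 in endothelial-like cells (76.1% and 19.0%) and a small one in dendritic-like cells (72.7% and 66.2%).

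Among FAP-like clusters of the 9 h library the loading genes Psmb9, Tap1 and Psmb8 differed more than the classical chain H2-D1. Cluster 10 (1113 cells), led by the chemokine Cxcl5 and Mmp3, had Psmb9 at 0.225 CPM (2 UMIs), cluster 15 (655 cells), led by Krtdap, 6.38 CPM, and cluster 17 (587 cells), led by the acute-phase gene Saa1, 12.7 CPM (9.60 to 16.4). Tap1 stood at 5.84, 12.8 and 34.3 CPM in the same order, and Psmb8 at 9.99, 34.2 and 49.2 CPM. Cluster 17 therefore held Psmb8 and Tap1 at levels near those of the 2 h clusters 0 and 2, where Psmb8 was 55.7 and 35.2 CPM and Tap1 37.1 and 56.8 CPM. H2-D1 differed little, with 574, 534 and 577 CPM in clusters 10, 15 and 17. Iigp1, which was open to the clustering, stood at 12.1, 58.3 and 300.5 CPM in the same 3 clusters, and its part in the difference was not tested.

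**Figure D4:**
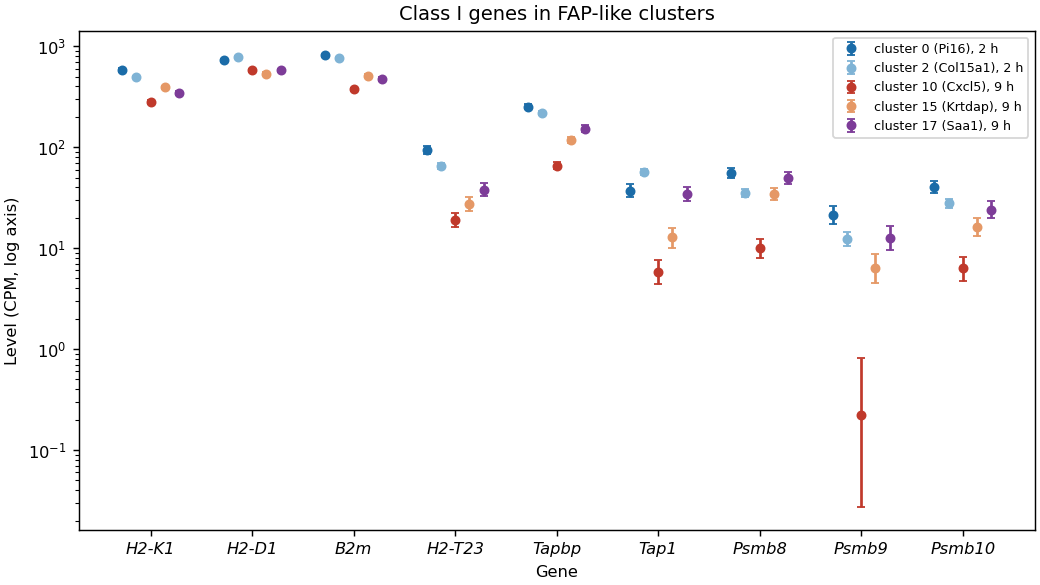
Points are levels of 9 class I genes (CPM, log axis) in the FAP-like clusters 0 and 2 at 2 h and 10, 15 and 17 at 9 h, with exact 95% Poisson intervals. Cluster 10 lies lowest for Tap1, Psmb8, Psmb9 and Psmb10 (Psmb9 0.225 CPM), and cluster 17 lies near the 2 h clusters for these genes. H2-D1 is close to level across the 9 h clusters 10, 15 and 17.

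Class II expression was concentrated in few cells. Summed over H2-Aa, H2-Ab1, H2-Eb1 and Cd74, dendritic-like cells had 55951 CPM at 2 h (55545 to 56360) and 41305 CPM at 9 h, and resident macrophage-like cells 36644 and 20978 CPM. B-like cells had 19286 CPM at 2 h (45 cells), and too few B-like cells (4) were kept at 9 h to give a level. Resident macrophage-like and dendritic-like cells were 6.27% and 2.82% of the cells at 2 h but held 46.7% and 44.6% of the class II UMIs. At 9 h, at 2.84% and 1.45% of the cells, they held 39.2% and 51.5%, so the order of the classes turned between the libraries.

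In dendritic-like cells Cd74 stood at 26739 and 20911 CPM, H2-Aa at 10953 and 7709 CPM, H2-Ab1 at 9367 and 5598 CPM and H2-Eb1 at 8892 and 7087 CPM. H2-DMa and H2-DMb1, the chains of the H2-DM peptide editor, stood at 742 and 455 CPM and at 619 and 309 CPM, and none of these passed 2-fold. H2-Ob, a chain of the H2-DO modulator that restrains H2-DM, was lower: 110 CPM at 2 h and 22.9 CPM at 9 h, 4.78-fold (3.04 to 7.87). Its partner H2-Oa had 74 and 6 UMIs and was not measured. H2-Ob was highest in B-like cells (447 CPM at 2 h). Ciita, the class II master regulator, stood at 47.8 and 77.1 CPM, a ratio of 1.61 (1.13 to 2.30).

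Resident macrophage-like cells had Cd74 at 18038 and 11072 CPM, a ratio of 0.614 (0.603 to 0.625), and H2-Aa at 6921 and 3638 CPM. H2-DMa (524 to 241 CPM) and H2-DMb1 (414 to 168 CPM, 2.46-fold, 2.13 to 2.85) passed 2-fold, while H2-Ab1 (5656 to 2939 CPM) and H2-Eb1 (6030 to 3328 CPM) did not. In monocyte-like cells H2-Aa (783 to 342 CPM), H2-Ab1 (571 to 266 CPM) and H2-DMa (181 to 64.2 CPM) were lower, and Cd74 (2185 and 1104 CPM) stayed within 2-fold. The cells with at least 10 class II UMIs were 27.6% of monocyte-like cells at 2 h and 12.9% at 9 h, and they held 96.6% and 95.3% of that class's class II UMIs. These were 47 of 170 and 46 of 357 cells, with median depths of 7489 and 5573 UMIs. The lower class II levels of monocyte-like cells thus stood beside a smaller share of such cells.

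In FAP-like and endothelial-like cells the class II values rested on a handful of cells. H2-Aa, H2-Ab1, H2-Eb1 and Cd74 were lower at 9 h in FAP-like cells (Cd74 109 to 19.1 CPM) and in endothelial-like cells (Cd74 339 to 139 CPM). In FAP-like cells 21 of 2069 cells at 2 h and 6 of 2401 at 9 h had at least 10 class II UMIs, and these held 80.6% and 69.2% of the UMIs. In endothelial-like cells 2 and 5 cells held 91.2% and 82.8%. Among these cells 16 of 21 and 3 of 6 (FAP-like), and 2 of 2 and 5 of 5 (endothelial-like), were among those with the highest doublet scores, against 6.49% and 7.93%, and 7.98% and 20.4%, of the other cells. Without all cells of high score the class II sum was 55.4 and 21.5 CPM in FAP-like cells in place of 224 and 41.8 CPM, and 49.8 and 20.7 CPM in endothelial-like cells in place of 673 and 250 CPM, and the log2 ratio of H2-Eb1 in endothelial-like cells turned to 0.16.

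The share of cells with a Cd74 UMI was compared with that in neutrophil-like cells. After thinning to 1000 UMIs per cell, Cd74 had a UMI in 2.89% of FAP-like cells at 2 h (2.20 to 3.71) and in 2.86% of endothelial-like cells, against 5.21% (4.15 to 6.44) of neutrophil-like cells, taken here as a class that makes little class II. Unthinned, the shares were 13.6%, 7.92% and 10.3%, at median depths of 7991, 3137 and 2011 UMIs. The thinned FAP-like and endothelial-like shares were at or below the neutrophil-like share, but unthinned the FAP-like share was above it. Thinning keeps a smaller part of any free RNA in deeper cells, so the comparison cannot decide whether those cells express Cd74. Their shares are not read as expression or as its absence. Free RNA itself was not measured, and its part in these values was not tested. Dendritic-like cells had a thinned share of 100% at 2 h and 96.5% at 9 h, and for resident macrophage-like cells it was 85.7% and 88.4%. For class I no class should lack the gene, so no such background was set.

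Among subclusters of dendritic-like cells, formed again without the members and summed over both libraries, Cd74 spanned 19548 to 33768 CPM, without D4, a subcluster led by genes of other classes. D5 (1 and 46 cells), whose leading genes include Fabp5 and the genes Fscn1 and Ccr7 of migrating mature dendritic cells, had H2-DMa at 139 CPM (102 to 184) and H2-DMb1 at 79.7 CPM (52.5 to 116), against 683 to 867 CPM and 563 to 662 CPM in D1 to D3. It also had Cd80 at 301 CPM (245 to 365), Cd86 at 460.3 CPM (391 to 538) and Ifi30 at 1818 CPM. D3 (49 and 19 cells), whose leading genes include Clec9a and Irf8 of the cross-presenting lineage, had Psmb8 at 422 CPM (374 to 473), Psmb9 at 215 CPM (182 to 253) and Tap1 at 157 CPM (129 to 190), above D1 (118, 47.6 and 61.3 CPM) and D2 (263, 55.3 and 93.4 CPM).

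D5 is almost only in the 9 h library, and D4 mostly so, and the dendritic-like comparison was also made over D1 to D3 alone (133 and 51 cells), a choice made after the values were seen. There Cd80 stood at 88.5 CPM at 2 h and 144 CPM at 9 h, a ratio of 1.63 (1.16 to 2.26), and no longer passed 2-fold, nor did H2-T23 (185 and 101 CPM). H2-DMa stood at 756 and 753 CPM. H2-Q4 (74.8 to 17.7 CPM) and H2-Ob (112 to 37.9 CPM) were lower, and H2-DMb2, a near copy of H2-DMb1, higher (63.5 to 139 CPM). Without D4 and D5 the count of 1 higher and 2 lower members was therefore the same as in the whole class but fell on different genes, other than H2-Ob.

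Resident macrophage-like subclusters spread widely in class II. M4 (64 and 31 cells), led by Retnla, Ear2 and Mmp12, had Cd74 at 23672 CPM and H2-DMa at 836 CPM, and M1 (62 and 4 cells), led by Ccl8, Cd209f and Fcna, had 7746 and 149 CPM. M5 (15 and 111 cells), led by Cd38, Gdf15 and Spic, had Cd74 at 8374 CPM, and M2 (127 and 9 cells), led by Cx3cr1, 17754 CPM. M3 (20 and 63 cells) had Ccl17, Vegfa and Arg1 among its leading genes. M6 (8 and 7 cells), led by Dcn and Col1a2, and M7 (11 and 6 cells), led by S100a8 and S100a9, were led by genes of other classes. Most M2 cells came from the 2 h library and most M3 and M5 cells from the 9 h library, so the mix of subclusters differed between the libraries. Within M4 alone Cd74 stood at 26153 CPM at 2 h (25744 to 26568) and 17601 CPM at 9 h (17077 to 18137), within 2-fold.

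**Figure D5:**
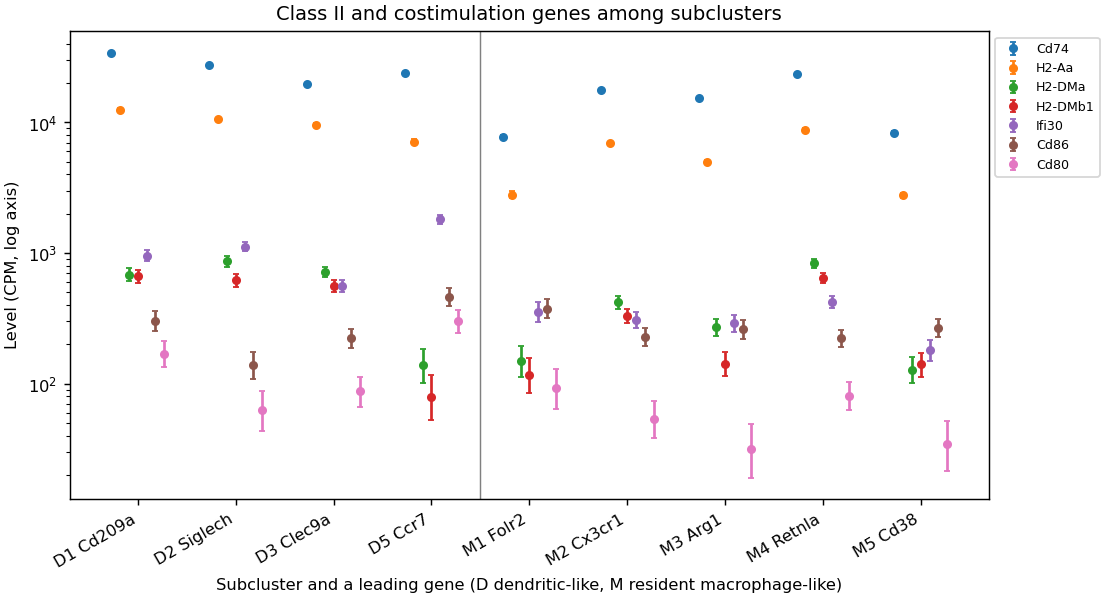
Points are levels (CPM, log axis) of 7 class II, processing and costimulation genes in subclusters of dendritic-like (D) and resident macrophage-like (M) cells, summed over both libraries, with exact 95% Poisson intervals. D5 has low H2-DMa (139 CPM) beside high Cd80 (301 CPM), and M1 and M5 have the lowest Cd74 of the macrophage subclusters shown (7746 and 8374 CPM).

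Endosomal processing genes did not share one direction. Lgmn (legumain, an asparagine endopeptidase) was above 0 on the log2 scale in all 6 classes, from 0.16 in endothelial-like to 0.73 in resident macrophage-like cells, and passed 2-fold in 0. Resident macrophage-like Lgmn stood at 935 CPM at 2 h and 1557 CPM at 9 h, a ratio of 1.67 (1.57 to 1.77), and in monocyte-like cells at 392.1 and 559 CPM. Ctss (cathepsin S, which removes the last part of the invariant chain) stood at 1681 and 960.2 CPM in monocyte-like cells and at 1121 and 1002 CPM in resident macrophage-like cells. Ifi30 (the thiol reductase GILT) was lower in monocyte-like cells (713 to 302 CPM, 2.36-fold, 2.13 to 2.62) and in FAP-like cells (68.5 to 24.1 CPM). In dendritic-like cells Ifi30 instead stood at 798 and 1202 CPM, a ratio of 1.51 (1.38 to 1.64).

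Cd80, a ligand of CD28 and CTLA-4 on T cells, differed in direction between classes. It was higher at 9 h in monocyte-like cells (51.5 to 134 CPM, ratio 2.60, 1.99 to 3.45) and in dendritic-like cells (94.1 to 200 CPM, ratio 2.13, 1.68 to 2.69). The dendritic-like log2 ratio of 1.01 was 0.90 with TMM scaling, 0.99 with members allowed in the clustering and 0.65 over D1 to D3, so this call was lost under each. Cd80 was lower in resident macrophage-like cells, from 92.0 to 24.3 CPM (3.78-fold, 2.63 to 5.59), a class whose mix of subclusters differed between the libraries. Neutrophil-like cells had the highest Cd80 level of the 6 classes at 2 h, 258 CPM, and at 9 h they stood at 171 CPM, below dendritic-like cells. Per cell they had fewer Cd80 UMIs (0.554 and 0.329) than dendritic-like cells (0.884 and 1.63), at median depths of 2011 and 1657 UMIs against 8903 and 7541. Cd86, the other CD28 ligand, passed 2-fold in 0 classes: 223 and 271 CPM in dendritic-like cells, 267 and 228 CPM in resident macrophage-like cells and 158 and 157 CPM in monocyte-like cells. Neutrophil-like cells had Cd86 at only 12.8 and 7.64 CPM.

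Further genes of these routes that are not members were read from the same tables. Of the 11 further genes of class I folding and peptide supply measured in FAP-like cells, 2 were higher (Psme3 and Psmb5) and 1 lower, Pdia3, the loading-complex oxidoreductase (454 to 217 CPM). Over all measured genes of that class 7.27% were higher and 9.21% lower. Of 11 further genes of the class II route measured in resident macrophage-like cells, 2 were higher and 1 lower, where 4.47% and 6.58% of all measured genes were. The lysosomal cathepsin Ctsl was highest in ratio among the 11, at 331 and 1433 CPM. In dendritic-like cells Cd40 (40.9 to 164 CPM) and Cd274, the PD-L1 gene (74.0 to 227 CPM), were the 2 higher of the 4 measured further costimulation and checkpoint genes. There 5.83% of all measured genes were higher. Of 16 measured regulators in FAP-like cells 1 was lower, Socs1, a feedback inhibitor of interferon signalling (125 to 42.7 CPM). The counts of lower genes in these FAP-like lists are near the 9.21% of all measured genes and are not read as a shift of the lists.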

How the data were processed

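The deposited files are matrices of counts (UMIs for each gene and barcode). For these the submitters' processing notes name Cell Ranger 5.0.0 and the build mm10. The library kit was 10x 3′ v3.1 per the labels. Annotation release, strand and aligner settings were not stated in the labels or notes used here. The members, gene lists and marker lists were chosen with earlier results of these data known.

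The files listed 5729 and 8790 barcodes. Cells needed 200 genes, 500 UMIs and at most 20% mitochondrial UMIs. Doublet calls by Scrublet (6 cells or 0.122% at 2 h, 0 at 9 h) fell under 0.5% and were set aside, so no cell was removed. An alternative left out the 225 and 573 cells with the highest scores (0.8% per 1000 barcodes). Cells were clustered with Scanpy 1.11.5 (2000 variable genes without the members, 30 components, 15 neighbours, Leiden resolution 1) and named from 17 marker lists. Of 32285 gene identifiers, 32235 matched GENCODE M21 (99.8%).

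UMIs were summed per class and library. Levels carry exact Poisson intervals, shares exact Clopper-Pearson intervals and ratios exact conditional binomial intervals (scipy 1.17.1). Members were described with values where they reached 100 CPM in a class in at least 1 library; the others are given by counts, ranges or as part of a pair, a subcluster or a statement on their group. Counts at the depth of the FAP-like comparison (10565 genes) were simulated as Poisson draws, the model that the intervals assume. Their coverage therefore checks the calculation and not the spread between cells. Intervals covered the simulated ratio in 96% of genes with a ratio of 0.25 and in 94% with ratios of 0.5, 2 or 4. The 10 CPM added made the 2-fold rule call 48% of 4-fold decreases and 84% of 4-fold increases there. Alternatives were the clustering resolution, members allowed in the clustering, TMM (edgeR 4.0.16), the mitochondrial limit, shared barcodes, doublet scores, 1 CPM added and no count minimum.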

Additional observations from a re-analysis of the deposited data

Results flagged for a closer look

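Cd80 moved in opposite directions between classes under the same contrast of 9 h to 2 h. Its log2 ratio was 1.23 in monocyte-like cells, 1.01 in dendritic-like cells and -1.57 in resident macrophage-like cells. With 1 library per time the difference between the classes was not tested. Over dendritic-like subclusters D1 to D3 alone the Cd80 log2 ratio was 0.65. The resident macrophage-like value compares different mixes of subclusters. M1 and M2 held 62 and 127 cells at 2 h and 4 and 9 at 9 h. M3 and M5 held 20 and 15 cells at 2 h and 63 and 111 at 9 h. The part of this mix in the value was not tested.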

How the results depend on the processing

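Over the 6 large classes, 112 counts of members were recomputed under the alternatives, 101 stayed within 1.5 times the value reported and 11 did not. Members lower at 9 h numbered 1 (resolution 0.5) and 2 (TMM) in place of 5 in neutrophil-like cells; at resolution 0.5 that class held 602 of the 4289 cells at 9 h, so the count is over a different set of cells, as it is over 2110 cells with members allowed in the clustering. In FAP-like cells they numbered 7 (members allowed in the clustering), 6 (without the highest doublet scores) and 18 (1 CPM added) in place of 11. In endothelial-like cells 8 of the 9 members still measured were lower without the highest doublet scores, in place of 16 of 18, and 1 was higher with a mitochondrial limit of 10% in place of 0. In resident macrophage-like cells 4 were lower at resolution 0.5 in place of 7. In dendritic-like cells 0 were higher with members allowed in the clustering and 0 with TMM, in place of 1, and 4 were lower with TMM in place of 2. Of 545 values of single genes, 1 changed sign after being called: H2-Eb1 in endothelial-like cells, with a log2 ratio of 0.16 without the highest doublet scores. Of 235 calls recomputed, 22 were lost. For those moved by added CPM or fewer measured genes the construction is the cause; for the rest the cause was not tested. At resolution 0.5 dendritic-like cells formed no class of their own, so no value was made there. Leaving out neutrophil clusters, D4 and D5, or M6 and M7 was chosen after seeing the data and kept each count within 1.5 times. No paired analysis was possible because each time has 1 library.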
